A study of Mus musculus with 6 samples.

Results

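The genes described here are 8 chloride and other anion channel genes of vascular cells, among 55341 genes in the deposited count table. They are the bestrophins *Best1* and *Best3*, the anoctamins *Ano1*, *Ano6* and *Ano10*, the CLC exchanger *Clcn3*, the volume-regulated channel subunit *Lrrc8a* and *Clic4*, a chloride intracellular channel protein. They were chosen by symbol with the difference between the genotypes already known, and *Best3* in particular was selected on that difference, so all comparisons of the 8 genes between genotypes are given as a description without a test. Of the 55341 genes, 16017 passed the filter on low counts (a counts-per-million value, or CPM, over 1 in 2 or more libraries, which also needed 2 counts in all), among them 8 of the 8 channel genes. *Best3* passed through the knockout libraries alone.

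RNA sequencing was done on aortas of 3 miRNA-26b-/- and 3 miRNA-26b+/+ mice, with 1 library per mouse. The labels give the strain C57BL/6NCrl for both groups and name endothelial cells, whereas the methods name perfused arch and thoracic aorta of mice aged 8 weeks on chow diet. The knockout lacks the microRNA hairpin in an intron of *Ctdsp1* in all tissues, after deletion by a tamoxifen-activated Cre that was then bred out, and it derives from 129/Sv embryonic stem cells crossed to C57BL/6. The related miRNA-26a genes are intact in both groups. The read counts of *Mir26b* were 0 in each knockout library and 0, 20 and 0 in the control libraries, so they do not check the genotype.

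Chloride leaves a smooth muscle cell when its anion channels open, because the cell keeps chloride above its equilibrium, and this outward movement depolarizes the membrane and favours contraction. Calcium-activated channels of the anoctamin and bestrophin families link this current to calcium release, LRRC8 channels open when the cell swells, and CLC proteins such as ClC-3 exchange chloride for protons in endosomes. CLIC proteins occur in soluble and membrane-bound forms, and several anoctamins scramble phospholipids between the leaflets of a membrane.

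According to the paper, the knockout lacks both mature products of the deleted hairpin. Only the product shown here was searched, because a seed match in a 3′ UTR is what would link it to a channel gene. The other sequence that follows is from the related miR-26a genes, which are intact in both groups. The sequences are from RefSeq (GRCm38.p6), with the seed, bases 2 to 8, in capitals. miR-26b-5p comes from chr1:74394324-74394344 on the forward strand, and miR-26a-5p from chr9:119031811-119031832 and chr10:126995543-126995564, also on the forward strand.
miR-26b-5p: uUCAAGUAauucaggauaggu
miR-26a-5p: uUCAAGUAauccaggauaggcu
Both carry the same seed. The matching DNA words TACTTGAA, TACTTGA and ACTTGAA, of which the first contains the others, were searched on the transcribed strand of the longest 3′ UTR of each gene in the GENCODE annotation. Such a word was present in 3843 of 21020 genes (18.3%) and in 0 of the 8 channel genes. The same count of 0 was obtained over every annotated 3′ UTR of the 8 genes.

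The lengths of these 3′ UTRs differed widely. *Best3* with 194 nt and *Best1* with 212 nt had short ones, and among all genes with a 3′ UTR within 25% of those lengths 2.33% and 2.94% held a word. *Clic4* had 3132 nt and *Clcn3* 2696 nt, and there the shares of genes of like length were 36.6% and 33.0%. The remaining lengths were 539 nt in *Ano10*, 1450 nt in *Ano1*, 1667 nt in *Lrrc8a* and 2050 nt in *Ano6*. The shorter word ACTTGA, searched after the first result was known, occurred in *Clcn3* and *Clic4*. These sites, on GRCm38 at chr8:60912284-60912289 and chr4:135216766-135216771, both on the reverse strand, are shown with 11 bases on each side and the word in capitals.
*Clcn3* site: atctaaaacaaACTTGActctaatcagt
*Clic4* site: tagatggcagaACTTGAggtgctatgtt
A word of this or a longer kind was present in 6631 of the 21020 genes (31.5%). The absence of these letters says nothing about other ways in which a gene may depend on the microRNA. Sites for the other mature product lost in the knockout were not searched.

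The tissue and the libraries bear on every value below. The 6 libraries held between 25706728 and 33345037 counts. Smooth muscle markers summed to 31482 to 42409 CPM, and the 8 endothelial markers to 428, 474 and 1694 CPM in miRNA-26b-/- replicates 1, 2 and 3 and to 1178 to 1635 CPM in the others, so smooth muscle RNA exceeded endothelial RNA by far in every library, unlike what the label names. Fibroblast markers summed to 4407 to 8045 CPM. Between the highest and the lowest library, the summed markers of cardiac muscle differed most, those of erythroid cells 10.9-fold, of skeletal muscle 9.91-fold, of sympathetic neurons 6.41-fold, of Schwann cells 5.10-fold, of adipocytes 4.20-fold, of endothelium 3.96-fold and of macrophages 3.20-fold. In whole tissue, fewer cells of a type and less RNA per cell cannot be told apart.

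The background of the comparison was as follows. With edgeR's quasi-likelihood test, 1 of 16017 genes had a Benjamini-Hochberg adjusted p under 0.05 (0.00624%), and 1036 (6.47%) had an unadjusted p under 0.05, of which 544 were higher (3.4%) and 492 lower (3.07%) in miRNA-26b-/- aortas. In 1846 genes (11.5%) the CPM values of the groups did not overlap. Among the 8 channel genes, 0 were past the adjusted threshold with edgeR and 1 with DESeq2, 1 was past the unadjusted threshold, and the groups did not overlap in 1. That gene was *Best3* each time, and nothing is read from these counts because its values chose it. The log2 fold changes of the 8 genes had a median of -0.09, with 2 above and 6 below 0, against a median of 0.01 over all genes tested. The plot of CPM by genotype shows the values of each mouse, with overlapping groups in the other 7 genes.

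**Figure D1:**
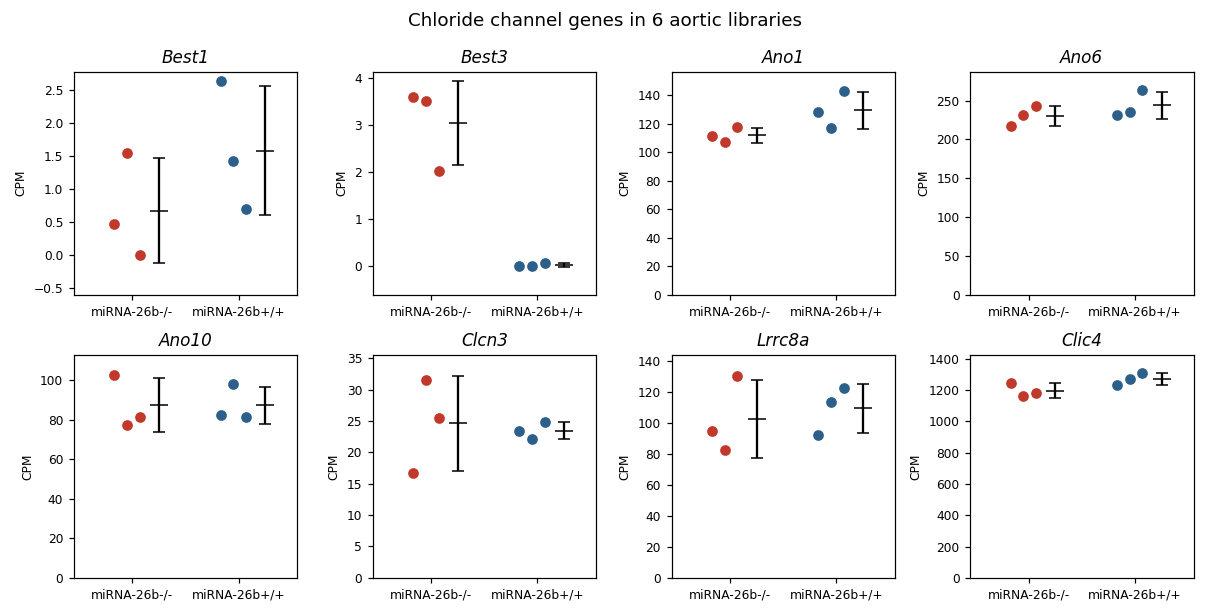
CPM (vertical axes, 1 scale per gene) of the 8 channel genes, with 1 point per mouse (red miRNA-26b-/-, blue miRNA-26b+/+, replicates 1 to 3 from left to right) and the mean ± SD of 3 mice in black. The groups overlap in every gene except *Best3*, with 0, 0 and 2 counts in the control mice.

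*Best3* encodes bestrophin 3, a channel of the calcium-activated bestrophin family that has been linked to a cGMP-dependent chloride current of vascular smooth muscle. It lies on chr10:116986314-117025040 of GRCm38, forward strand. It had 92, 118 and 57 counts in miRNA-26b-/- replicates 1, 2 and 3, which is 3.60, 3.52 and 2.02 CPM. In miRNA-26b+/+ aortas it had 0, 0 and 2 counts. All 3 knockout libraries were high, replicate 3 least so, and the groups did not overlap. The summed counts were 267 against 2, a ratio of 135 per unit of library size with an exact 95% interval of 37.0 to 1120 that covers counting error only, not the spread between mice. It is a description of these reads, since the gene was selected on this difference, and its lower count came from 1 library. Leaving out 1 library at a time moved the ratio over 88.1 (without miRNA-26b+/+ replicate 1) to 157 (without knockout replicate 3), and without miRNA-26b+/+ replicate 3 no miRNA-26b+/+ count remained. The fitted log2 fold change was 6.83 (SE 1.98, n = 3 mice per group) and depended on the prior count, so that it is no measure of the ratio.

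Genes with as few counts as *Best3* often had a library without any. Its mean count was 44.8 per library, and 2614 tested genes had a mean within 2-fold of that. Of these, 1564 (59.8%) had a library at 0, and in 309 (11.8%) the groups did not overlap. In 65 of them (2.49%) every library of one group had at most 3 counts, as for *Best3*, and in 38 of the 65 the knockout was the group with counts.

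The patterns nearest to *Best3* were sought over the 6 libraries, where a gene selected for a high knockout level has neighbours of the same kind by construction. The gene most like it, of 11681 genes with a mean of at least 5 CPM, was *Mbp*, a myelin protein gene, at a root-mean-square difference of 1.501 between the centred log2 CPM values, and *Fbxl13* (1.57), *6330403K07Rik* (1.61) and *Ptprn* (1.67) were also among the nearest. Even the nearest of the patterns compared was thus distant. The limit of 5 CPM left out genes as rare as *Best3* itself, among them *Tnnt3*, whose counts are given below. *Mbp* was at 97.9, 71.0 and 55.2 CPM in knockout replicates 1, 2 and 3 and at 7.38, 17.2 and 28.1 CPM in the control mice. It had its 3 highest values in the knockout, with replicate 3 the lowest of these, as for *Best3*.

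The marker lists show the same for Schwann cells as a whole. Their 8 markers summed to 333, 265 and 207 CPM in miRNA-26b-/- replicates 1, 2 and 3 and to 65.3, 88.7 and 135 CPM in miRNA-26b+/+, and 3 of the 8 markers had groups that did not overlap, all higher in the knockout. Over all genes tested, 11.5% had such groups, in either direction. In the other lists, 1 of the 8 smooth muscle markers was apart, lower in the knockout. Of the 12 skeletal muscle markers, 2 were apart, both higher in the knockout. *Tnnt3*, a fast troponin gene, had 115, 226 and 54 counts against 0, 0 and 2, and *Mylpf*, a fast myosin light chain gene, had 91, 113 and 174 against 0, 0 and 0. The 12 markers together were at 57.6, 133 and 13.7 CPM against 13.4, 26.1 and 16.2 CPM, with knockout replicate 3 in the range of the control mice. *Myh4*, a defining gene of fast fibres, had 115, 650 and 0 counts against 0, 0 and 0. The endothelial sum did not follow the genotype, since knockout replicate 3 had the highest of all, and the groups overlapped in each of the 8 markers. The markers differed among themselves in that replicate, where *Pecam1* was at its highest, at 716 CPM, and *Kdr* at its lowest, at 8.83 CPM. The part of Schwann cell or skeletal muscle RNA in the *Best3* counts was not tested.

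**Figure D2:**
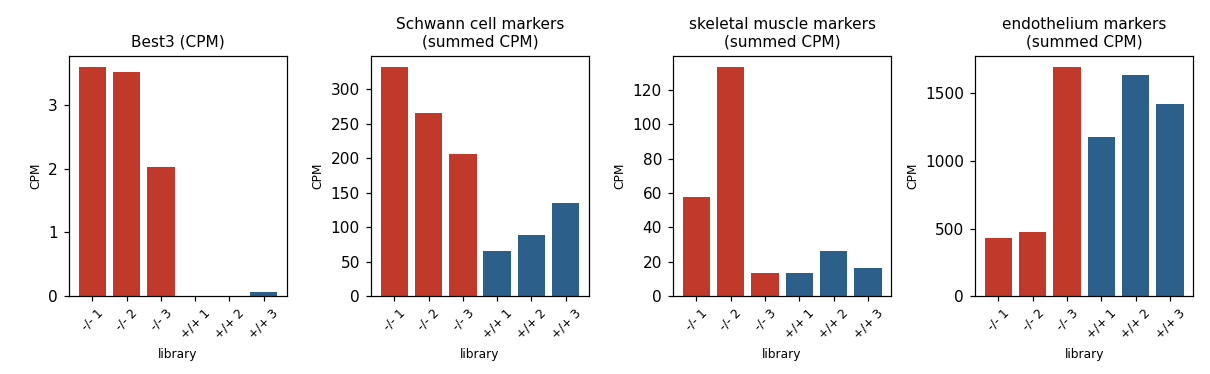
*Best3* (left) and the summed markers of Schwann cells, skeletal muscle and endothelium, in CPM on a vertical axis from 0, for each of the 6 libraries (red miRNA-26b-/-, blue miRNA-26b+/+). *Best3* and the Schwann cell sum are higher in all 3 knockout libraries, the skeletal muscle sum only in replicates 1 and 2, and the endothelial sum is low in replicates 1 and 2.

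*Best1*, the bestrophin of retinal pigment epithelium and also a calcium-activated channel, lies on chr19:9985174-10001633, reverse strand. It had 12, 52 and 0 counts in miRNA-26b-/- and 81, 39 and 21 in miRNA-26b+/+, and the groups overlapped. The log2 fold change was -1.12 with an SE of 1.11 and a 95% interval of -3.46 to 1.22. This fold change moved to -2.81 without knockout replicate 2, to -0.56 without knockout replicate 3 and to -0.51 without miRNA-26b+/+ replicate 1. The coefficient of variation of its CPM was 118% in the knockout and 62.1% in miRNA-26b+/+ mice. Its nearest patterns were *Acss1* (0.54), *Cycs* (0.62), *Zfp868* (0.64), *Fam219aos* (0.65) and *Dnajc28* (0.67), all lowest in knockout replicate 3, as *Best1* was. The third bestrophin of the table, *Best2*, had no count in any library.

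The anoctamins *Ano1*, *Ano6* and *Ano10* were expressed at a steady level. *Ano1*, the calcium-activated chloride channel of smooth muscle, lies on chr7:144588549-144751974, reverse strand, and had 2858, 3592 and 3317 counts in miRNA-26b-/- and 3925, 3210 and 4325 in miRNA-26b+/+. This was 112.1 ± 5.28 against 129.4 ± 13.1 CPM (SD, n = 3), a log2 fold change of -0.21 (SE 0.154, 95% interval -0.54 to 0.12). Only miRNA-26b+/+ replicate 2 fell within the knockout range. The 5 genes most like *Ano1* were *Jph2* (0.03), which encodes junctophilin 2 of the contact between plasma membrane and sarcoplasmic reticulum, *Dhx15* (0.04), *Mgea5* (0.04), *Copb2* (0.04) and *Arid1b* (0.04). In *Jph2* and *Dhx15* the groups were just apart, both lower in the knockout.

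*Ano6*, a calcium-activated scramblase that exposes phosphatidylserine and also conducts ions, lies on chr15:95790843-95974751, forward strand. Its level of 230.1 ± 12.9 CPM in the knockout stood against 243.6 ± 17.2 CPM in miRNA-26b+/+ mice, a log2 fold change of -0.08 (SE 0.137, 95% interval -0.37 to 0.21). *Ano10*, an intracellular anoctamin whose loss causes a cerebellar ataxia in humans, lies on chr9:122175874-122294423, reverse strand. It was at 87.3 ± 13.7 CPM against 87.4 ± 9.33 CPM, with a 95% interval of the log2 fold change of -0.38 to 0.37, and its sign turned with the scaling. In both genes the groups overlapped. The ratio of *Ano1* to *Ano6*, each per length, kept within 0.912 to 1.09 in the 6 libraries.

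*Clcn3* and *Lrrc8a* had a wider spread between the knockout mice than *Ano1*, *Ano6* and *Ano10*. *Clcn3*, on chr8:60910389-60983300, reverse strand, had 427, 1060 and 720 counts in miRNA-26b-/- and 715, 608 and 750 in miRNA-26b+/+. The coefficient of variation of its CPM was 30.5% in the knockout and 5.69% in miRNA-26b+/+ mice, and both the lowest and the highest library were knockout libraries. The log2 fold change was 0.09 (SE 0.276, 95% interval -0.50 to 0.68). *Lrrc8a*, the obligatory subunit of the volume-regulated anion channel, lies on chr2:30237715-30263790, forward strand. It had 2421, 2758 and 3677 counts against 2817, 3120 and 3693, again with overlapping groups and a log2 fold change of -0.10 (SE 0.194, 95% interval -0.51 to 0.32). Exons of *Lrrc8a* share 2853 bp with *Gm28035* on the same strand, which had 1977, 2486 and 3049 against 2744, 2948 and 3876 counts, and reads in the shared stretch were counted for both genes. In both *Clcn3* and *Lrrc8a* the sign turned when knockout replicate 2 was left out, to -0.14 and 0.0455.

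*Clic4*, whose protein moves between cytosol, nucleus and membranes and takes part in the formation of the endothelial lumen, lies on chr4:135213969-135272814, reverse strand. It had 31938, 38888 and 33238 counts in miRNA-26b-/- and 37856, 34845 and 39586 in miRNA-26b+/+. This was 1195 ± 46.7 against 1272 ± 37.2 CPM (SD, n = 3), a log2 fold change of -0.09 (SE 0.116, 95% interval -0.34 to 0.16), and the groups overlapped in 1 library each. The coefficient of variation of its CPM was 3.91% in the knockout and 2.93% in miRNA-26b+/+ mice, the smallest of the 8 genes in each group.

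To compare levels between genes, counts were divided by exon length (FPKM, the CPM value per kilobase of exon). *Clic4* was highest, at 187.7 ± 8.58 FPKM (SD over 6 libraries), above 98.8% of the genes tested and 7.64-fold above the next. *Lrrc8a* followed at 24.6 FPKM, then *Ano1* and *Ano6*, both at 19.3 FPKM, and *Ano10* at 14.8 FPKM. The level of *Lrrc8a*, and its place and ratio to *Lrrc8c* below, may include reads of *Gm28035*, counted in the stretch both genes share. *Lrrc8a*, *Ano1* and *Ano6* overlapped in their ranges, as neighbours in this order, whereas the range of *Ano10* ended at 17.4 FPKM, just under that of *Ano6*, which began at 17.7 FPKM. After a gap of 10.5-fold came *Clcn3* at 1.41 FPKM, then *Best3* at 0.564 and *Best1* at 0.438 FPKM, with ranges that overlapped.

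Some places in this order held in every library and others did not. *Clic4* was first, *Lrrc8a* the second and *Ano10* the fifth in all 6, while *Ano1* and *Ano6* changed places. *Best3*, at 1.12 ± 0.326 FPKM in miRNA-26b-/- and 0.00811 FPKM in miRNA-26b+/+, stood above *Best1* in all 3 knockout libraries and below it in all 3 others. In knockout replicate 1 it also stood above *Clcn3*. Lengths of union exons count all alternative exons, which lowers the FPKM of genes with many of them. With the longest transcript, *Ano6* was at 48.1, *Ano10* at 32.9 and *Ano1* at 26.3 FPKM, above *Lrrc8a*, so the order of these 4 genes is not settled. *Clic4* remained first and *Clcn3* sixth, at 2.93 FPKM.

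**Figure D3:**
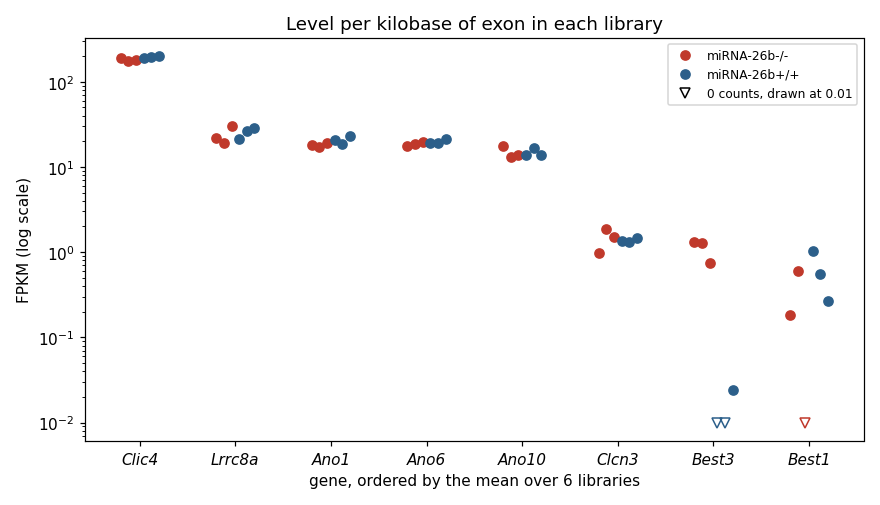
Level of each channel gene per length (FPKM on a log axis), with 1 point per library (red miRNA-26b-/-, blue miRNA-26b+/+) and genes ordered by their mean. *Clic4* stands at 176 to 199 FPKM, 4 genes lie between 13.1 and 30.3 FPKM, and the libraries without a count of *Best3* or *Best1* are drawn as open triangles at 0.01.

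The CG counts of the proximal promoters did not follow the order of these levels, apart from the low count of *Best1*. RefSeq gave a promoter, 250 bases before to 50 after the start, for 7 of the 8 genes (GRCm38.p6). Among 32841 promoters the median was 7 CG dinucleotides. *Best1*, the lowest of these 7 genes in the mean over 6 libraries, had 1 CG, a count that 94.6% of promoters reached or passed, while *Ano1* had 18, *Ano10* 24, *Clic4* 28, *Ano6* 29 and *Lrrc8a* 32. *Clcn3* had a promoter with 8 and another with 38, although its level was low, and *Clic4*, the highest gene, had fewer than *Ano6* and *Lrrc8a*. The promoters of the lowest and the highest of the 7 are shown for this contrast, *Best1* from chr19:10001584-10001883 and *Clic4* from chr4:135272711-135273010, both on the reverse strand and with each CG in capitals.
*Best1* promoter: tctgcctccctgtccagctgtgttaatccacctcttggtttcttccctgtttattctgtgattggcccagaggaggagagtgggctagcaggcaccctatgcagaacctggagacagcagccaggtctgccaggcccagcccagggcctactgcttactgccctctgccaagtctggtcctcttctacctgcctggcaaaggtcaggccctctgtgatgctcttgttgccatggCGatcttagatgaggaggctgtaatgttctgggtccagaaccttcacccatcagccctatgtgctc
*Clic4* promoter: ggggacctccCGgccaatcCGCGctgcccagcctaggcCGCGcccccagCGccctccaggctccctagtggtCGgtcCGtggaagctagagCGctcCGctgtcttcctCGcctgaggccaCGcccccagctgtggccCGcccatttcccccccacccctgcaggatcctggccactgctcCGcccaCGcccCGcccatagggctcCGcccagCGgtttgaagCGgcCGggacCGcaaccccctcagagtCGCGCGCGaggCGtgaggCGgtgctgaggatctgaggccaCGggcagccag
These counts in 7 genes are a description, and none of the promoters was assayed here.

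The wider families place the 8 genes among their relatives. The table held 47 genes of 6 anion channel families, of which 27 were tested, 8 had counts but were filtered out, and 12 had no count in any library, including the epithelial channel gene *Cftr*. Of the FPKM summed over the 47 genes, the 8 channel genes made up 68.5% and *Clic4* alone 47.9%. The highest relative was *Clic1* at 60.3 FPKM, then the endosomal and lysosomal exchangers *Clcn4* and *Clcn7* at 10.1 and 9.87 FPKM. Of the other LRRC8 subunits, which join *Lrrc8a* in the channel, *Lrrc8c* was at 6.46, *Lrrc8b* at 0.925 and *Lrrc8d* at 0.782 FPKM, and *Lrrc8e* had no count. The ratio of *Lrrc8a* to *Lrrc8c* was 3.07 to 4.40 and that of *Clic4* to *Clic1* 2.74 to 3.64 in the 6 libraries.

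Of the 19 tested relatives, 3 had an unadjusted p under 0.05, all higher in miRNA-26b-/- aortas, where 3.4% of all genes did so, and 0 passed the adjusted threshold with edgeR or DESeq2. The lists were drawn up with earlier results of these libraries known, so this count is no independent evidence. The median log2 fold change of the 19 was 0.04, with 10 above and 9 below 0, against 0.01 over all genes. *Clcn2*, an inwardly rectifying chloride channel gene, had 189, 351 and 159 counts in miRNA-26b-/- and 69, 63 and 49 in miRNA-26b+/+, a log2 fold change of 1.96 (SE 0.583, adjusted p = 0.734 with edgeR's quasi-likelihood test). Its exons overlap those of *Fam131a* and *Polr2h* by up to 85 bp. *Ano2*, the calcium-activated channel of olfactory neurons, had 202, 311 and 360 counts against 118, 146 and 115, a log2 fold change of 1.22 (SE 0.467, adjusted p = 0.736 with the same edgeR test). In both genes all knockout libraries were above all others. Groups did not overlap in 3 of the 19 relatives, against 11.5% of all genes tested, and nothing is read from this count.

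*Ttyh3*, of the tweety family, had 327, 911 and 793 counts against 326, 377 and 271, and its groups overlapped through knockout replicate 1. The log2 fold change was 1.06 (SE 0.357, adjusted p = 0.736 with edgeR's quasi-likelihood test). *Clcn4* was the other relative whose groups did not overlap, lower in the knockout by a log2 fold change of -0.09 (SE 0.159, adjusted p = 0.965 with edgeR). By family, the median log2 fold change was -0.0044 in 5 anoctamins and 0.09 in 7 CLC genes and subunits. It was -0.15 in 4 LRRC8 genes, -0.09 in 3 CLIC genes and 0.17 in 6 other channel genes. The plot of log2 fold changes shows most relatives near 0, with wide errors for the rarer transcripts.

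**Figure D4:**
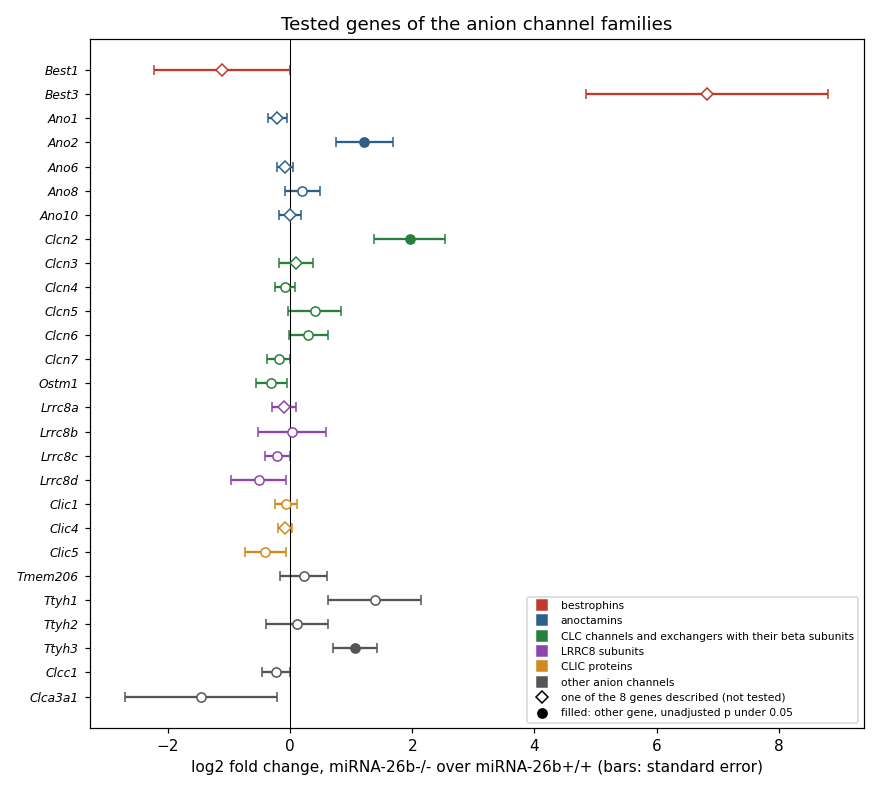
Log2 fold change between miRNA-26b-/- and miRNA-26b+/+ aortas (horizontal axis, 0 marked, bars for the standard error) of the 27 tested genes of 6 anion channel families, coloured by family. Diamonds are the 8 channel genes, given without a test, and filled circles are the 3 relatives with an unadjusted p under 0.05, *Clcn2*, *Ano2* and *Ttyh3*.

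Genes that supply or control these channels were taken as 4 further lists, of which 31 of 33 genes were tested, with 13 log2 fold changes above and 18 below 0 and a median of -0.06. Only *Slc12a7*, a potassium-chloride cotransporter gene whose protein carries chloride out of the cell, had an unadjusted p under 0.05, as 6.47% of all genes did. It had 967, 1467 and 1253 counts in miRNA-26b-/- and 1973, 1818 and 1740 in miRNA-26b+/+, with all knockout libraries below all others. Groups did not overlap in 1 of the 31 genes, which was *Slc12a7*, against 11.5% of all genes tested. The log2 fold change was -0.57 (SE 0.189, adjusted p = 0.736 with edgeR's quasi-likelihood test). The 9 chloride loading genes had a median of -0.07, with 1 past the unadjusted threshold, and the 9 tested genes of calcium supply and calcium-dependent kinases one of -0.15, with 0 past it. The median was -0.03 in 4 genes of the cGMP pathway and 0.03 in 9 genes of phospholipid scramblases and flippases, again with 0 past the unadjusted threshold with edgeR. Without knockout replicate 3, 9 of these 31 genes were past it, when 1692 of all genes were, against 1036 with all libraries. Nothing is read from the 9, as the lists were drawn up with earlier results known.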

How the data were processed

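The authors aligned reads with STAR to GRCm38 (mm10) and deposited counts per gene, made with featureCounts 1.6.4 over the exons that share a gene name, unstranded, where a read over more than 1 gene adds to each. The file header names GENCODE M21. The deposited exon length (an unnormalized other value, in bp) gave FPKM with the TMM library size. The deposited CPM table holds the authors' fold changes and p-values and was not used. Library totals were 25706728 to 33345037 counts. Reads carry no molecular identifiers, so intervals from counts cover counting error only, and p-values measure the spread between 3 mice per group.

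Genes over 1 CPM in 2 or more libraries, with 2 or more counts in all, were normalized by TMM and tested with edgeR 4.0.16 (quasi-likelihood, prior count 0.125, R 4.3.3), with Benjamini-Hochberg adjustment over all genes. Intervals of log2 fold changes use the t quantile of that fit. The procedure was tested on simulated data, with changes only in genes of higher mean counts than *Best3* and *Best1*. Alternatives were RLE and library size scaling, filters, DESeq2 1.42.0, limma voom 3.58.1, edgeR's earlier method, the exon length and leaving out each library.

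The genes, the gene and marker lists and the tests were chosen with earlier results of these data known. Genes named are the 8 channel genes, listed relatives with an unadjusted p under 0.05, the 5 patterns nearest to *Best3*, *Best1* and *Ano1*, and markers of lists that differed over 2-fold between libraries; *Clcn4* and relatives named by level were added after their values were seen. Some genes that this rule names are not reported here. Likeness used log2 CPM with a prior count of 2, over genes with a mean of at least 5 CPM only. Sequences were read from RefSeq tables and GENCODE M21 transcripts.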

Additional observations from a re-analysis of the deposited data

How the results depend on the processing

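In 13 alternative fits the log2 fold changes kept their sign in *Best1*, *Best3*, *Ano1*, *Ano6* and *Clic4*, with ranges of -2.81 to -0.51, 6.29 to 9.47, -0.27 to -0.14, -0.12 to -0.03 and -0.12 to -0.07, and no alternative except DESeq2 for *Best3* (7.09) passed the adjusted threshold, so that 1 of the 8 genes passed there. *Ano10* turned from -0.0044 to 0.0021 with RLE, 0.011 with library size, 0.0035 without the CPM filter and 0.0050 with DESeq2, and over -0.14 to 0.0917 leaving out 1 library. Leaving out 1 library moved *Clcn3* over -0.14 to 0.29 and *Lrrc8a* over -0.31 to 0.0455.

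Genes past the adjusted threshold numbered 57 with DESeq2, 3 with limma voom, 0 with edgeR's earlier method and 0 to 82 leaving out 1 library, the 82 without knockout replicate 3. At the unadjusted threshold they numbered 686 (without miRNA-26b+/+ replicate 3) to 1692 (without knockout replicate 3). In the 4 further lists 2 genes passed with RLE, library size, filterByExpr or limma voom and 1 to 9 leaving out 1 library. *Ano2* lost its unadjusted call without knockout replicate 3, miRNA-26b+/+ replicate 1 or miRNA-26b+/+ replicate 3, and *Clcn2*, *Ttyh3* and *Slc12a7* kept theirs in all 13 fits. With the longest transcript, levels were 26.3 FPKM for *Ano1*, 48.1 for *Ano6*, 32.9 for *Ano10*, 2.93 for *Clcn3* and 299 for *Clic4*. With the shorter seed word counted, 2 channel genes held a site. The causes were not tested.

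No paired analysis was possible because the replicate numbers follow the order of accession and pair no mice. Depth limits *Best1* and *Best3*, where a library can hold no read, and 3 mice per group limit all.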
